A study of Mus musculus with 6 samples.

Results

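The genes described here hold the oocyte in the dictyate stage, the long pause at the end of meiotic prophase, or make up the maturation-promoting factor (MPF) that ends it. They were chosen by symbol for their known function: the kinase gene Cdk1, the B-type cyclins Ccnb1, Ccnb2 and Ccnb3, the phosphatases Cdc25a and Cdc25b, the oocyte kinase Wee2, the kinase Mos, the receptor Gpr3 and the phosphodiesterase Pde3a. All 10 were found among the 47122 gene models of the deposited table, and all 10 passed the filter on low values, which asked for 1 FPKM or more in 3 or more libraries. FPKM is a fragment count made relative to the length of the gene and the size of the library. Whole ovaries of mice at 1 day post partum (dpp) were profiled in 3 wild-type (WT) samples and in 3 samples labelled BCAS2 cKO, in which the splicing factor gene Bcas2 was knocked out in oocytes (conditional knockout, cKO). The sources used here give neither the Cre driver, the exons removed and the mouse strain, nor whether a sample is a single animal or a pool. A description label mentions granulosa cells, while the tissue label, the titles and the design text give ovary.

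In the fully grown oocyte, GPR3 signals through the stimulatory G protein to adenylyl cyclase, and the cyclic AMP made there keeps protein kinase A active. PDE3A breaks cyclic AMP down. Protein kinase A favours WEE2, which places an inhibitory phosphate on CDK1, over CDC25B, which removes it. CDK1 bound to a B-type cyclin is MPF, and its activation starts the first meiotic division. MOS acts later and holds the egg at metaphase of the second division. Oocytes at 1 dpp are just entering the dictyate stage and are still small. Cdk1, Ccnb1, Ccnb2, Cdc25a and Cdc25b also serve ordinary mitosis, so in a whole ovary their RNA can come from dividing somatic cells as well.

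Libraries held between 16800421 and 19565275 recovered reads. The labels were checked with Bcas2, for which the WT libraries gave 54.5, 37.5 and 35.7 FPKM and the cKO libraries 18.9, 21.9 and 18.3 FPKM, without overlap. Its log2 fold change was −1.05, with an unadjusted p of 0.0005 and an adjusted p of 0.955 in limma. Among the 15 oocyte markers listed, 14 passed the filter and 0 were at 0 in every library. WT replicate 1 had the highest mean of endothelial genes, 4.36 on the log2(FPKM + 1) scale against 2.48 to 3.02 in the other libraries. The cKO replicate 2 library had the highest mean of erythroid (red blood cell) genes, 9.13 against 3.68 to 5.79. Values that rest on these libraries are given below with and without them.

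None of the 10 genes differed between WT and cKO ovaries beyond the spread between samples. In limma, 0 of the 10 rose, 0 fell and 10 did not pass at an adjusted p under 0.05, where 0% of the 14589 tested genes passed. Bcas2 itself did not pass either, so this count cannot show that the 10 genes were unchanged. At an unadjusted p under 0.05 there were 0 of the 10, against 3.04% of all tested genes, and the WT and cKO values overlapped for all 10, where 7.88% of tested genes had groups that did not overlap. Limma-voom on recovered reads also called 0 of the 10. In some alternatives 1 of the 10 had an unadjusted p under 0.05. Ccnb3 did so with array weights (adjusted p = 0.263 in limma) and without WT replicate 3 (adjusted p = 0.599 in limma). Ccnb2 did so without cKO replicate 2 (adjusted p = 0.9996 in limma) and with WT replicate 1 also left out (adjusted p = 0.9999 in limma). Gpr3 did so without cKO replicate 3 (adjusted p = 0.878 in limma). By estimate 4 were higher in cKO and 6 lower, with a median log2 fold change of −0.05 beside −0.0058 for all tested genes. The widest 95% interval was that of Cdc25b, from −0.99 to 1.52, and the narrowest that of Cdc25a, from −0.18 to 0.27.

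**Figure D1:**
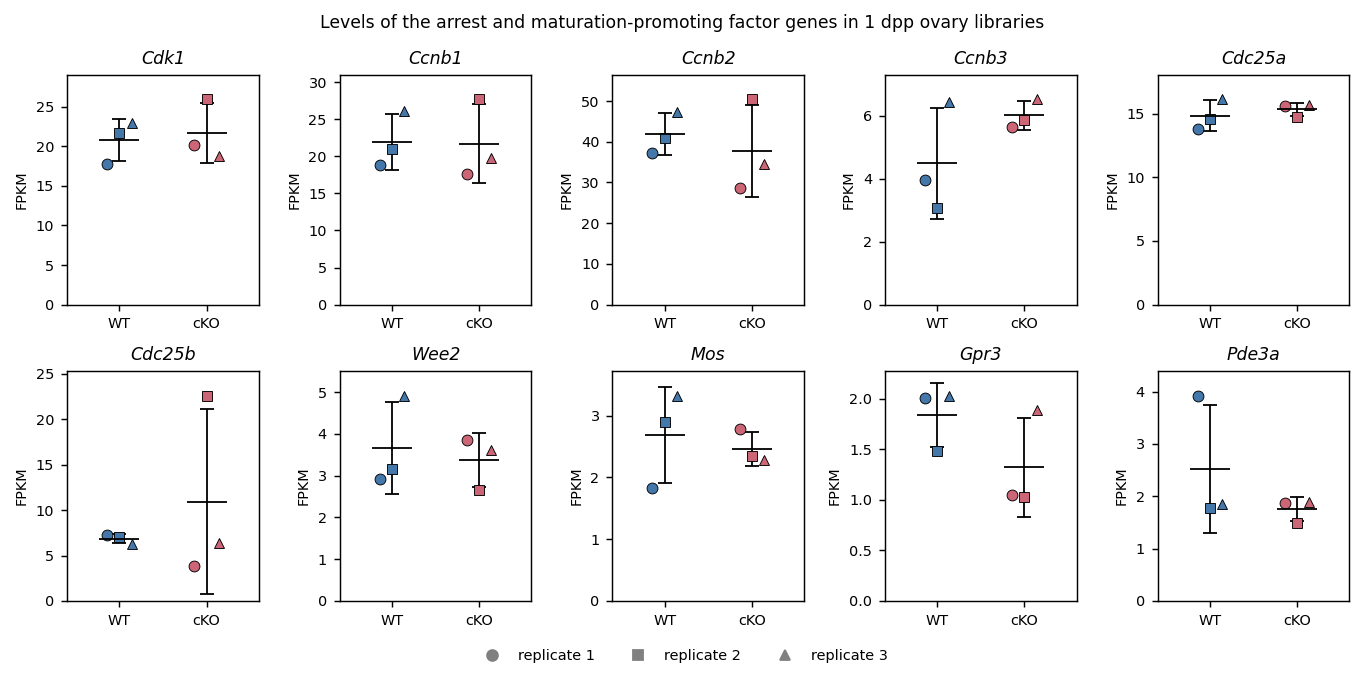
Level of each gene (FPKM, y axes starting at 0) in 3 WT and 3 cKO ovary libraries. Points are libraries, with the symbol giving the replicate number from the titles. The long bar is the group mean and the whiskers are ± 1 SD. The points of the groups overlap in every panel, and single libraries stand apart for Cdc25b (22.6 FPKM in cKO replicate 2) and Pde3a (3.92 FPKM in WT replicate 1).

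The order of the levels put the mitotic and meiotic core of MPF first and Mos, Pde3a and Gpr3 last. Averaged over the 6 libraries, Ccnb2 stood at 39.8 FPKM, Ccnb1 at 21.8, Cdk1 at 21.2, Cdc25a at 15.1, Cdc25b at 8.88, Ccnb3 at 5.25, Wee2 at 3.51, Mos at 2.57, Pde3a at 2.13 and Gpr3 at 1.58 FPKM. Ccnb2 lay above Ccnb1, and Cdk1 above Cdc25a, in 6 of 6 libraries without overlap of their ranges. The ranges of every other pair of neighbours in this order overlapped, although Wee2 lay above Mos in 6 of 6 libraries. Ccnb1 and Cdk1 could not be put in order, with Ccnb1 higher in 4 of 6, nor could Cdc25b and Ccnb3, with Cdc25b higher in 3 of 6.

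Cdk1 lies at chr10:69170976-69188742, minus strand (GRCm39, as are the other gene positions here). The kinase gene was at 17.8, 21.6 and 22.9 FPKM in WT replicates 1, 2 and 3, and the cKO replicates in the same order gave 20.2, 26.0 and 18.8 FPKM. The highest and the second lowest of these values were both in cKO. Means were 20.8 ± 2.67 and 21.7 ± 3.80 FPKM (SD, n = 3 each), and the log2 fold change was 0.05 (SE 0.15, 95% interval −0.31 to 0.41, adjusted p = 0.979 in limma). Ccnb1 encodes cyclin B1, the cyclin partner of CDK1 in the best known form of MPF (chr13:100915247-100922994, minus strand). It was at 18.8, 21.0 and 26.2 FPKM across WT, against 17.6, 27.7 and 19.8 FPKM across cKO. Its lowest and its highest value were again both in cKO, and the log2 fold change was −0.03 (SE 0.19, adjusted p = 0.990 in limma). The table also lists a copy elsewhere, Ccnb1-ps, at 0.150 to 0.598 FPKM. Ccnb2 encodes cyclin B2, which can stand in for cyclin B1 in oocytes (chr9:70314971-70328836, minus strand). It was at 37.2, 40.9 and 47.3 FPKM across WT, against 28.6, 50.5 and 34.4 FPKM across cKO. Of the 3 cKO values, 1 lay above and 2 below the whole WT range, and the log2 fold change was −0.17 (SE 0.21, 95% interval −0.67 to 0.32, adjusted p = 0.955 in limma). All 3 genes were highest in cKO replicate 2, the library with the highest erythroid mean. Without that library the log2 fold changes were −0.08 for Cdk1, −0.21 for Ccnb1 and −0.40 for Ccnb2.

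These 3 genes varied together from library to library and with a list of 19 mitotic proliferation genes that contains none of them. The libraries fell in the same order for Ccnb1 as for the mean of that list: cKO replicate 1 lowest, then WT 1, cKO 3, WT 2, WT 3 and cKO 2. Cdk1 and Ccnb2 did not keep this order among the lower libraries. Cdk1 rose in the order WT 1, cKO 3, cKO 1, WT 2, WT 3 and cKO 2. Ccnb2 rose in the order cKO 1, cKO 3, WT 1, WT 2, WT 3 and cKO 2. The mean of the list ran from 4.16 to 4.66 on the log2(FPKM + 1) scale. After centring each on its own mean over the 6 libraries, the root mean square difference from the list mean was 0.07 for Cdk1, 0.08 for Ccnb1 and 0.13 for Ccnb2, while the 3 genes themselves had root mean squares of 0.17, 0.23 and 0.27 about their means. The same difference was 0.19 for Cdc25a, 0.21 for Mos, 0.31 for Wee2, 0.34 for Gpr3, 0.36 for Ccnb3, 0.46 for Pde3a and 0.57 for Cdc25b. In the same order, their own root mean squares were 0.07, 0.20, 0.23, 0.25, 0.33, 0.32 and 0.70. Only for Cdc25b was the difference from the list smaller than the gene's own value. Oocyte and meiotic prophase genes were somewhat farther from the 3 core genes, at 0.18 to 0.27 and 0.16 to 0.28. Single genes outside the proliferation list lay closer than its mean. Among 12095 protein-coding genes the closest were Blvra for Cdk1 (0.03), Cep76 for Ccnb1 (0.04) and Sapcd2 for Ccnb2 (0.09). The level of Ccnb1 relative to Cdk1 was 1.06 ± 0.0860 in WT and 0.998 ± 0.108 in cKO, and that of Ccnb2 relative to Cdk1 was 2.02 ± 0.108 and 1.73 ± 0.277 (SD, n = 3 each), with overlapping groups for both. A smaller number of cells of a type and less RNA in each of them cannot be told apart in such bulk samples, and the share of the core genes' RNA that came from oocytes was not measured.

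The promoters of the 3 core genes are shown because the genes varied together, and that of Wee2 is set beside them as an oocyte gene. RefSeq sequences of GRCm38.p6 were available for 8 of the 10 genes. Each line below gives the 250 bases before the annotated start, 5′ to 3′ on the gene's strand. Capitals mark 2 motifs, searched on both strands, that did not overlap each other in these windows. The first, CCAAT, is the box bound by NF-Y. The second, TTTGAA, is a common form of the cell cycle homology region of genes expressed late in the cell cycle.
Cdk1 (chr10:69352913-69353162, minus strand): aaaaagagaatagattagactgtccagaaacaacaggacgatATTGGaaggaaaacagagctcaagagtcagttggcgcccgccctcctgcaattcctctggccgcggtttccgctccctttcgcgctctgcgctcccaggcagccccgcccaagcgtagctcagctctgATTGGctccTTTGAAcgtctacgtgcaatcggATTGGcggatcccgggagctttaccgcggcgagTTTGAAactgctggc
Ccnb1 (chr13:100786487-100786736, minus strand): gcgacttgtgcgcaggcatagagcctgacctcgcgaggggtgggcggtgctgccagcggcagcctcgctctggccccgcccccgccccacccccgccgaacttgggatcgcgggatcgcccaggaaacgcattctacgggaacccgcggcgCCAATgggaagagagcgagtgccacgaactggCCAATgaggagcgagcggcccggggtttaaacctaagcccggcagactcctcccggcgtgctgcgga
Ccnb2 (chr9:70421555-70421804, minus strand): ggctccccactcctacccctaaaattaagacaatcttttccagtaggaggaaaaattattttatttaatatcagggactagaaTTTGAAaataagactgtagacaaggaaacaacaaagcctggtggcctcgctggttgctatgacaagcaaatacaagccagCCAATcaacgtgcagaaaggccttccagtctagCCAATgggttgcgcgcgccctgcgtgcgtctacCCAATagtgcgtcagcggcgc
Wee2 (chr6:40442613-40442862, plus strand): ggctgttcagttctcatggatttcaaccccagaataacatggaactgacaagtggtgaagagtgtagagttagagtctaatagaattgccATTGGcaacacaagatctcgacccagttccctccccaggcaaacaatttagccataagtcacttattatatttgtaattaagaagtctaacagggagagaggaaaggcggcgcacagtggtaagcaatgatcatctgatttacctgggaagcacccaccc

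CCAAT or its reverse was found in 3 places before Cdk1, 2 before Ccnb1, 3 before Ccnb2 and 1 before Wee2, and in 7 of the 8 promoters, all but that of Ccnb3. It occurs in 33.9% of all 32851 promoter windows of this length. TTTGAA was found before Cdk1, beginning 71 and 15 bases before the start, and before Ccnb2, beginning 167 bases before it. It occurs in 16.0% of all windows, and both motifs together in 5.55%. The window before Ccnb1 holds no TTTGAA. Matches are descriptions of the letters, and no binding was measured.

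Ccnb3 encodes cyclin B3, a germ cell cyclin needed for the oocyte to leave metaphase of the first division (chrX:6845891-6907874, minus strand). It was at 3.96, 3.06 and 6.45 FPKM across WT, against 5.65, 5.86 and 6.53 FPKM across cKO. WT replicate 3 lay inside the cKO range, and the other 2 WT libraries lay below all cKO libraries. Means were 4.49 ± 1.76 and 6.02 ± 0.460 FPKM (SD, n = 3 each), and the log2 fold change was 0.40 (SE 0.22, 95% interval −0.13 to 0.92), with an unadjusted p of 0.115 and an adjusted p of 0.955 in limma. This was the smallest p-value of the 10 genes. The estimate was 0.21 without WT replicate 2 and 0.64 without WT replicate 3. The mean of 15 meiotic prophase genes was at 4.24, 4.29 and 4.83 in WT and 4.65, 4.88 and 4.47 in cKO on the log2(FPKM + 1) scale. It was low in the same WT libraries as Ccnb3, but in cKO replicate 3, where Ccnb3 was highest, it was the lowest of the cKO values. Its part in the level of Ccnb3 was not tested. Among 12095 protein-coding genes, the centred values of Zfp541, which encodes a zinc finger protein of meiotic germ cells, were closest to those of Ccnb3, with a root mean square difference of 0.11 over the 6 libraries. AB124611 came next, also at 0.11.

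Set against the mean of 14 oocyte genes in the same library, Ccnb3 lay at −3.35, −4.01 and −3.55 in WT and at −3.31, −3.32 and −3.11 in cKO on the log2 scale. The cKO values lay above the WT values without overlap. The gap was narrow, with the highest WT value at −3.346 and the lowest cKO value at −3.315. With the same subtraction 2.1% of all tested genes had cKO above WT without overlap. That share counts only the direction seen for Ccnb3, and the larger share over both directions is not given here. Ccnb3 was the only gene described here whose groups did not overlap against the oocyte list. Against the mean of the meiotic prophase genes, the values of Ccnb3 overlapped between the groups, with −2.04 ± 0.20 in WT and −1.86 ± 0.28 in cKO.

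The phosphatases that activate CDK1 differed from each other in how much they varied. Cdc25a, best known for the start of DNA replication and for mitotic entry (chr9:109704545-109722963, plus strand), was the steadiest of the 10 genes, at 13.8, 14.6 and 16.1 FPKM across WT, against 15.6, 14.7 and 15.7 FPKM across cKO. Its highest value was only 1.17 times its lowest, and the log2 fold change was 0.05 (SE 0.10, adjusted p = 0.973 in limma). Cdc25b, whose product starts the resumption of meiosis in mouse oocytes (chr2:131028356-131040431, plus strand), was at 7.21, 7.04 and 6.26 FPKM across WT, against 3.80, 22.6 and 6.37 FPKM across cKO. The cKO group held both the highest and the lowest library, 5.94 times apart, resting on 1393 and 242 recovered reads. The log2 fold change was 0.27 (SE 0.53, adjusted p = 0.972 in limma), while it was −0.40 without cKO replicate 2 and 0.75 without cKO replicate 1.

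The library with the high Cdc25b value was also the one with the most RNA of red blood cells. The 8 erythroid genes, all of them tested, summed to 13689 FPKM in cKO replicate 2, against 699.1 and 1233 FPKM in the other cKO libraries and 405.1 to 1199.8 FPKM in WT. Hbb-bs, an adult beta-globin gene, was at 6560 FPKM there and at 174.3 to 535.9 FPKM elsewhere. Slc4a1, the anion exchanger of the red cell membrane, was at 116.9 FPKM there and at 0.0759 to 9.68 FPKM elsewhere. None of the 8 was at 0 in all libraries. With the libraries in rising order of their erythroid mean (WT 1, WT 2, cKO 1, cKO 3, WT 3 and cKO 2), Cdc25b was at 7.21, 7.04, 3.80, 6.37, 6.26 and 22.6 FPKM. Within cKO the order was the same for both, and within WT it was the reverse. The gene closest to Cdc25b over the 6 libraries was Cd24a, a surface glycoprotein gene, at 136.8 FPKM in cKO replicate 2 and 27.3 to 48.6 FPKM elsewhere, with a root mean square difference of 0.24. The part of red blood cell precursors in the Cdc25b value was not tested.

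Wee2, the kinase gene that keeps CDK1 inhibited in oocytes (chr6:40412180-40443749, plus strand), was at 2.92, 3.15 and 4.91 FPKM across WT, against 3.86, 2.65 and 3.60 FPKM across cKO. The WT group held the highest value and the cKO group the lowest, and the log2 fold change was −0.08 (SE 0.20, 95% interval −0.55 to 0.40, adjusted p = 0.978 in limma). These levels rest on 151 to 325 recovered reads. Its gene model shares 890 bases at its start with Dennd11 on the opposite strand, itself at 4.53 to 7.03 FPKM, so reads of the 2 genes may not have been told apart there. Set against the mean of the oocyte genes in the same library, Wee2 lay between −3.98 and −3.69 in WT and between −4.23 and −3.77 in cKO. Against the meiotic prophase genes the cKO values of Wee2 lay below the WT values without overlap, at −2.27, −2.24 and −2.26 in WT and at −2.37, −3.01 and −2.27 in cKO. The highest cKO and the lowest WT value were both −2.27 at this rounding. After the same subtraction 2.71% of all tested genes had cKO below WT without overlap. That share counts only the direction seen for Wee2, and the larger share over both directions is not given here. Wee2 was the only gene described here whose groups did not overlap against the meiotic prophase list. The mean of that list was itself higher in cKO, at 4.67 ± 0.21 against 4.45 ± 0.33 in WT (SD, n = 3 each), with overlapping groups. By estimate 13 of its 15 genes were higher in cKO and 2 lower. Against the proliferation list the groups overlapped for every gene described here.

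Mos, the gene of a kinase made in the maturing egg (chr4:3870658-3872105, minus strand), was at 1.82, 2.90 and 3.32 FPKM across WT, against 2.78, 2.34 and 2.27 FPKM across cKO. All 3 cKO values lay inside the WT range, with a log2 fold change of −0.07 (SE 0.19, adjusted p = 0.978 in limma). With 46 to 94 recovered reads a library, the counting intervals (exact Poisson, 95%, counting error only) were 1.33 to 2.43 FPKM in the lowest library, WT replicate 1, and 2.69 to 4.07 FPKM in the highest, WT replicate 3. Relative to the oocyte genes of the same library, Mos averaged −4.18 ± 0.14 for WT against −4.26 ± 0.12 for cKO (SD, n = 3 each), and its centred values lay 0.11 from the oocyte mean, the nearest of the marker lists.

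Gpr3, the receptor gene that drives cyclic AMP in the arrested oocyte (chr4:132936651-132939847, minus strand), was the lowest of the 10, at 2.01, 1.48 and 2.03 FPKM across WT, against 1.05, 1.03 and 1.89 FPKM across cKO. Of the cKO libraries, 2 lay below all WT libraries and the third lay inside the WT range. The means were 1.84 ± 0.313 and 1.32 ± 0.493 FPKM, and the log2 fold change was −0.30 (SE 0.19, 95% interval −0.77 to 0.16), with an unadjusted p of 0.161 and an adjusted p of 0.955 in limma. The exact permutation test gave p = 0.2, where 0.1 is the smallest possible, and the log2 fold change ran from −0.22 without cKO replicate 2 to −0.47 without cKO replicate 3. The 2 low libraries rest on 39 and 37 recovered reads, with counting intervals of 0.745 to 1.43 and 0.722 to 1.41 FPKM. The closest gene over the 6 libraries was Gja4, which encodes connexin 37, a gap junction protein of oocytes and of endothelium. It was at 18.1, 14.1 and 18.0 FPKM across WT, against 12.5, 11.8 and 16.7 FPKM across cKO, a root mean square difference of 0.04. Il17ra came next, at 0.06.

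Pde3a, the gene of the oocyte's main cyclic AMP phosphodiesterase (chr6:141194995-141452588, plus strand), was at 3.92, 1.78 and 1.85 FPKM across WT, against 1.87, 1.48 and 1.90 FPKM across cKO. WT replicate 1 stood alone, and the other 5 libraries lay between 1.48 and 1.90 FPKM. The log2 fold change was −0.31 (SE 0.24, adjusted p = 0.955 in limma) and became −0.04 without WT replicate 1. Pde3a is also a gene of vascular smooth muscle and other somatic tissue. In the same library the 10 endothelial genes summed to 191.9 FPKM, against 46.0 to 69.7 FPKM in the other 5, and 8 stroma genes summed to 1389 FPKM, against 400.3 to 652.2 FPKM. The centred values of Pde3a lay nearest to the mean of the macrophage genes, at a root mean square difference of 0.18, then to the pregranulosa (0.28), stroma (0.31) and endothelial (0.33) means. The 8 macrophage genes summed to 31.1 FPKM in WT replicate 1, against 20.3 to 26.0 FPKM in the others. The part of these cells in the Pde3a value was not tested. The genes closest to Pde3a were Plekhg1 and Peli2, both also highest in WT replicate 1, at 3.997 and 6.30 FPKM, with root mean square differences of 0.04 each.

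**Figure D2:**
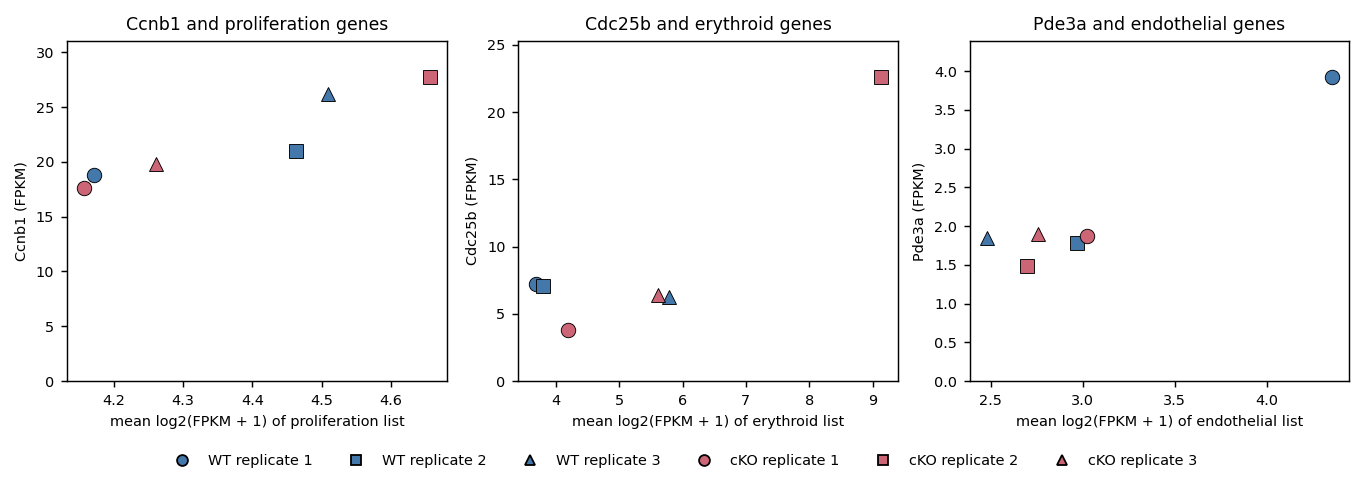
Level of Ccnb1, Cdc25b and Pde3a (FPKM, y axes starting at 0) against the mean log2(FPKM + 1) of the proliferation, erythroid and endothelial lists, 1 point per library. Ccnb1 follows the proliferation mean through all 6 libraries, while for Cdc25b (22.6 FPKM) and Pde3a (3.92 FPKM) a single library is high in both the gene and the list. Cdk1 and Ccnb2, not plotted, did not keep the order of the proliferation mean among the lower libraries.

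**Figure D3:**
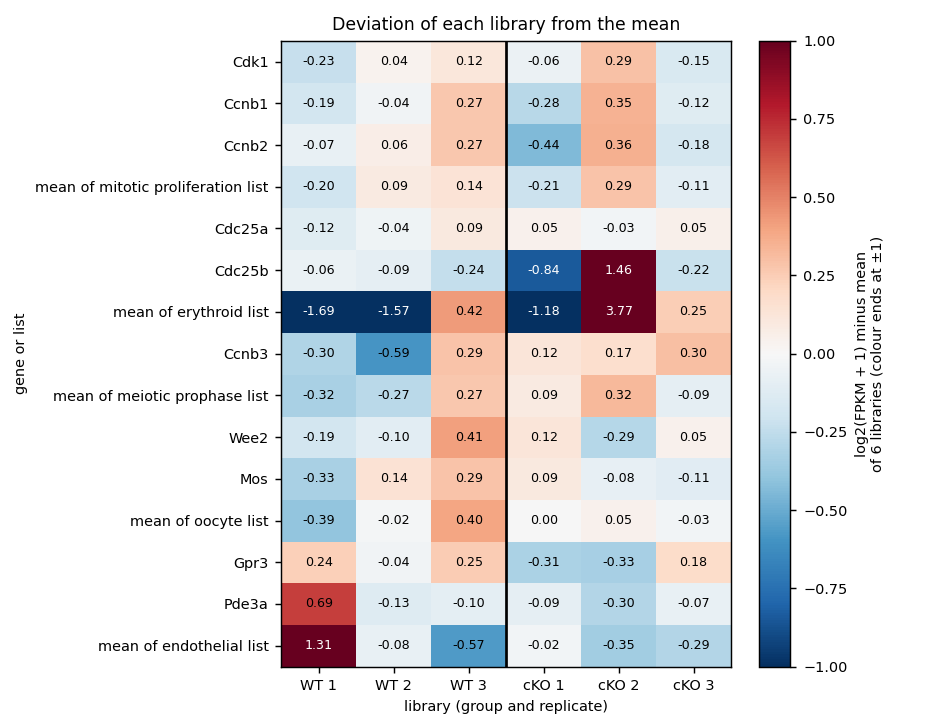
Deviation of each library from the mean of the 6 libraries, in log2(FPKM + 1), for the 10 genes and 5 marker lists placed beside them; the vertical line separates WT from cKO. Cdk1, Ccnb1 and Ccnb2 share the pattern of the proliferation list, Cdc25b reaches 1.46 in cKO replicate 2, where the erythroid mean is 3.77, and Pde3a reaches 0.69 in WT replicate 1, where the endothelial mean is 1.31.

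Other genes of meiotic arrest and M-phase entry gave the same counts. Of 48 listed genes 43 were tested: in limma 0 rose, 0 fell and 43 did not pass, with 0 at an unadjusted p under 0.05 and 0 called by limma-voom. Their median log2 fold change was −0.05, with 14 above 0 and 29 below. The 4 genes with the smallest p-values were Cks2, Mnat1, Wee1 and Prkacb, each with an adjusted p of 0.955 in limma. Cks2, a small subunit bound by CDK1, was at 95.3, 120.6 and 167.1 FPKM across WT, against 164.2, 238.9 and 140.2 FPKM across cKO, with a log2 fold change of 0.50 (SE 0.26). Its highest value was in cKO replicate 2, as for Cdk1, Ccnb1 and Ccnb2, and its groups overlapped. Mnat1, which assembles the kinase that activates CDK1, averaged 9.16 ± 0.833 FPKM across WT against 7.96 ± 0.554 FPKM across cKO (SD, n = 3 each), and the groups did not overlap. Wee1, the somatic relative of Wee2, was at 26.7 ± 2.49 and 23.7 ± 0.912 FPKM, and Prkacb, a catalytic subunit of protein kinase A, at 45.4 ± 5.37 and 39.8 ± 3.79 FPKM. The level of Wee2 relative to Wee1 was 0.137 ± 0.0360 in WT and 0.142 ± 0.0275 in cKO. The 5 listed genes under the filter were Gpr12, a relative of Gpr3, Nppc, the natriuretic peptide of later granulosa cells, Inhba, Pde4d and Ccna1.

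**Figure D4:**
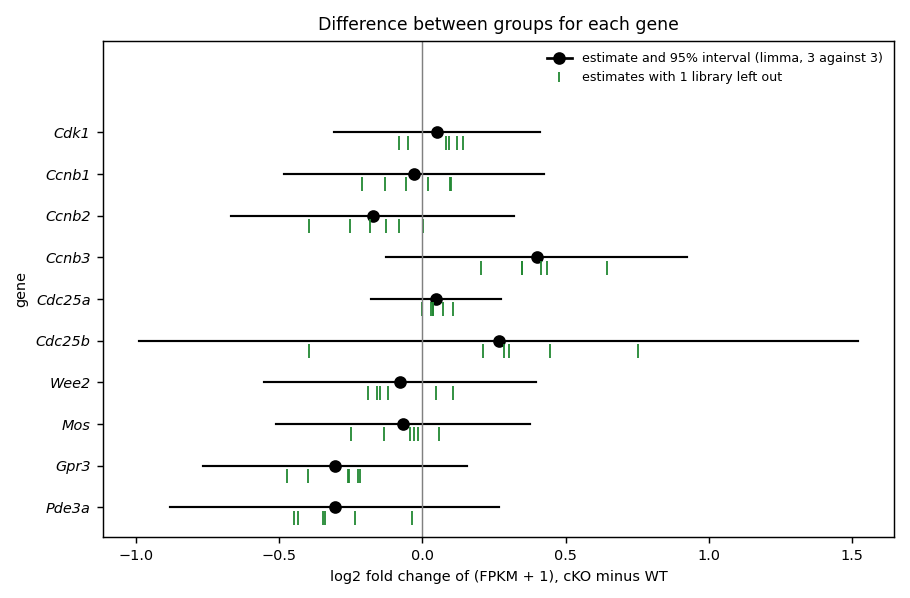
Log2 fold change of (FPKM + 1), cKO minus WT, for each of the 10 genes, with its 95% interval from limma (black) and the estimates after leaving out 1 library at a time (green ticks). Every interval includes 0, and the ticks lie on both sides of 0 for 7 of the 10 genes, all but Ccnb3, Gpr3 and Pde3a.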

How the data were processed

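RNA of 3 WT and 3 cKO ovary samples was sequenced, and the authors deposited FPKM values for 47122 gene models with gene lengths and GRCm39 coordinates. Per the submitters' processing notes, HISAT2 2.0.5 was used, with mm10 and GRCm39 given as builds. The strand setting, annotation release and counting tool were not given in the sources used here. Groups and replicate numbers came from the titles, and columns were matched through the descriptions.

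Values were tested as log2(FPKM + 1) in limma 3.58.1 (R 4.3.3; lmFit, eBayes with a trend, two-sided) on 14589 genes that reached 1 FPKM in 3 or more libraries, with Benjamini-Hochberg adjustment over all of them and a threshold of 0.05. Fold changes on this scale understate the change of low genes. FPKM times gene length came in whole multiples of 1 step per library, taken as 1 read: of the values above 0 and below 3000 reads, 100% lay within 0.05 of a whole number. Those reads served limma-voom and the counting intervals. Replicates of a group differed by more than sampling noise (chi-square per degree of freedom 13.3 to 66.6). Nothing says that samples are separate animals, so the spread behind the p-values may be technical. With 3 against 3 an exact permutation test cannot go below 0.1.

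The genes and lists were chosen with earlier results of these data known. The named genes were Bcas2, the 10 genes and the 4 pathway genes with the smallest p. For each of the 10, the 2 closest of 12095 protein-coding genes were also sought. Closeness was the root mean square difference of centred log2(FPKM + 1) over the 6 libraries. Among so many genes some lie close to any pattern over 6 libraries, so closeness does not show a shared cell source. None is given for Cdc25a, Wee2 and Mos, and the second closest is given only for Ccnb3, Gpr3 and Pde3a. Marker lists covered oocyte, meiotic prophase, proliferation, pregranulosa, stroma, endothelial, erythroid, macrophage, immediate-early and mesonephric epithelium genes. Alternatives covered the pseudocount, the filter, the scaling, the replicate block, the spread model, voom and each library left out. The fit was tested on simulated data.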

Additional observations from a re-analysis of the deposited data

How the results depend on the processing

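Over 18 alternatives (17 planned, and leaving out WT replicate 1 and cKO replicate 2 together, chosen after seeing the data) no result of the 10 genes or of the pathway list passed the threshold. The count over all genes was 1 with array weights (Mir6999), 0 to 1 when single libraries were left out (Pcna-ps2 without cKO replicate 2) and 1 with WT replicate 1 and cKO replicate 2 both left out (Pcna-ps2), against 0 otherwise. Genes at an unadjusted p under 0.05 numbered 443 as reported, 1990 with array weights, 1056 without WT replicate 3, 1147 without a filter (33311 genes tested), 254 with a filter at 5 FPKM, 379 with voom, and 293, 253 and 702 when cKO replicate 1, 2 or 3 was left out. Of the 10 genes 1 was under it with array weights, without WT replicate 3, without cKO replicate 2 or 3, and with both libraries out, and 0 otherwise. Of the 43 pathway genes these settings gave 6, 2, 1, 1 and 1, and the others 0. Bcas2 stayed lower, with log2 fold changes from −1.16 to −0.86. Signs of log2 fold changes turned in these cases, and the cause was not tested. When single libraries were left out, Cdk1 ran from −0.081 to 0.14, Ccnb1 from −0.21 to 0.10, Ccnb2 from −0.40 to 0.0035, Cdc25a from −0.0019 to 0.11, Cdc25b from −0.40 to 0.75, Wee2 from −0.19 to 0.11 and Mos from −0.25 to 0.059. With array weights Cdk1 was at −0.042, Cdc25b at −0.13 and Wee2 at 0.091. Rescaling to TPM gave −0.028 for Cdk1 and −0.031 for Cdc25a, with the median of all genes at −0.08. With WT replicate 1 and cKO replicate 2 both left out the values were −0.18 for Cdk1, −0.36 for Cdc25b and 0.034 for Pde3a. Ccnb3 kept its sign (0.21 to 0.68), as did Gpr3 (−0.49 to −0.17). The filter at 5 FPKM left out Wee2, Mos, Gpr3 and Pde3a. With the replicate block 0 genes passed and 432 had an unadjusted p under 0.05. The deviations of same-numbered samples correlated at 0.22, 0.01 and −0.03. WT replicate 1 and cKO replicate 1 correlated best with each other, while the other samples did not correlate best with their own number. So few correlations cannot decide whether same-numbered samples belong together. Depth limits Gpr3 and Mos, with 37 to 94 recovered reads a library.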

Other observations

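The cyclin B degradation arm of the pathway, described here with genes chosen from the pathway list after their values were seen, was present in the newborn ovary at levels that overlapped between the groups. Fzr1, the activator of the anaphase-promoting complex that keeps cyclin B1 low in arrested oocytes, averaged 55.3 ± 10.3 FPKM across WT against 55.3 ± 5.73 FPKM across cKO. Fbxo5, an inhibitor of that complex, was at 9.26 ± 0.963 and 10.2 ± 2.33 FPKM. Fbxo43, the inhibitor that holds the egg at its second arrest, was at 1.39 ± 0.309 and 1.23 ± 0.197 FPKM (SD, n = 3 each, WT before cKO). Cdc20, the other activator of the complex, was at 21.2 ± 3.29 and 19.4 ± 3.57 FPKM.

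Library means in log2(FPKM + 1) are given here for 4 more of the marker lists. Pregranulosa genes (9 tested) were at 5.45 ± 0.18 and 5.45 ± 0.14, macrophage genes (6 tested) at 2.24 ± 0.25 and 2.17 ± 0.14, immediate-early genes (8 tested) at 4.17 ± 1.32 and 2.79 ± 0.25 and mesonephric epithelium genes (8 tested) at 3.50 ± 0.08 and 3.95 ± 0.12 (SD, n = 3 each, WT before cKO). No tested member of these 4 lists passed in limma, while 1, 0, 2 and 4 of them had an unadjusted p under 0.05, where 3.04% of all tested genes did. The mean of the mesonephric epithelium list was higher in all cKO libraries than in all WT libraries, at 3.44 to 3.59 in WT and 3.82 to 4.06 in cKO. By estimate 6 of its 8 genes were higher in cKO and 2 lower, with the lowest log2 fold change at −0.13. The groups did not overlap for 3 of the 8 genes, all with cKO above WT. Among all tested genes 7.88% had groups that did not overlap in either direction. The 3 genes were Pax8, Cldn3 and Foxj1, named after their values were seen, with log2 fold changes of 0.75, 1.24 and 0.59 and adjusted p-values of 0.955, 0.883 and 0.955 in limma.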
